A study of Mus musculus with 2 samples.

Results

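The vacuolar proton pump (V-ATPase) and the cathepsins, the proteases that work in the acid compartment it makes, were described in mouse fallopian tube (oviduct) epithelial organoids with and without Trp53. Members were taken by name: every gene whose symbol starts with Atp6v or Atp6ap, and every gene named Cts plus 1 letter. This gave 44 of the 25668 genes listed, 26 named for the pump and 18 cathepsins. The control library (called wild-type here, genotype label WT) came from organoids of a mouse with the allele Gt(ROSA)26Sortm1(CAG-cas9*,-EGFP)Fezh on the background B6J.129(B6N), in which the CAG promoter drives Cas9 and EGFP. The other library came from organoids with the genotype label Trp53 KO. Both carry the treatment label Conditioned medium. There was 1 library for each genotype, so no difference below has a replicate check, and the difference between genotypes cannot be told apart from differences between these particular cultures. Whether a culture was 1 clone, how many animals contributed and their age are not stated by the labels.

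The pump is a rotary motor. Its soluble V1 sector splits ATP and turns a shaft, and its membrane V0 sector carries protons through a ring of small subunits into lysosomes, endosomes or, in some epithelia, across the plasma membrane. Several subunits are encoded by more than 1 gene. One gene of each such set is used in most cells, and another is restricted to certain tissues, such as Atp6v1b1 and Atp6v0a4 in the acid-secreting cells of kidney and epididymis. Cathepsins are made as inactive precursors and are activated at acid pH, where they break down proteins delivered to lysosomes. The transcription factor TFEB and its relatives bind a short E-box element (the CLEAR element, with CACGTG at its core) near many genes of both groups.

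Promoter sequences were available for 33 of the 44 members in RefSeq (GRCm38.p6, 250 bases before to 50 bases after the start site). The 4 shown first belong to genes that were far lower in Trp53 KO organoids, 2 of them pump subunits and 2 of them cathepsins, and each is given 5′ to 3′ for the 250 bases before the start site with CACGTG in capitals. Of these 4, only that of Ctsf holds CACGTG. Atp6v1b1 lies at chr6:83742767-83743016 on the plus strand, Atp6v0a4 at chr6:38124587-38124836 on the minus strand, Ctsf at chr19:4854915-4855164 on the plus strand and Ctso at chr3:81932351-81932600 on the plus strand.
Atp6v1b1: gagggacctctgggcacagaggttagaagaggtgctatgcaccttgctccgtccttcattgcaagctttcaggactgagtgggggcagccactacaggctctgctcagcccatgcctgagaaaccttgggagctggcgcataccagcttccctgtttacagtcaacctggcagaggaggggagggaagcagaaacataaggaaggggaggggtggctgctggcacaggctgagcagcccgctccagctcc
Atp6v0a4: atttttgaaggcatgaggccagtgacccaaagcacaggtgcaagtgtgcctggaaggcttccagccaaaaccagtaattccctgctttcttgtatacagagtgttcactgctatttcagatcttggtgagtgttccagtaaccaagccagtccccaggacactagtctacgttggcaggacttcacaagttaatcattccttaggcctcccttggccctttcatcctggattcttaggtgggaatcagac
Ctsf: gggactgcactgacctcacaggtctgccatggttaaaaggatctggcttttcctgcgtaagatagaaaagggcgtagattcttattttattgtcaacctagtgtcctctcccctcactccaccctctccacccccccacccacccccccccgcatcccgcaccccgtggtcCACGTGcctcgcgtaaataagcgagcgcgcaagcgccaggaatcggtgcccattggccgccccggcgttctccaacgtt
Ctso: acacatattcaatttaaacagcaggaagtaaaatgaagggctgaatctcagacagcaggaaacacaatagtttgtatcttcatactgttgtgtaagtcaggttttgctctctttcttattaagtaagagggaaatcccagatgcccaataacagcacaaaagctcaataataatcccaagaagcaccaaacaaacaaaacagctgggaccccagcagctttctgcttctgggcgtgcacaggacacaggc

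The next set shows the 5 members whose promoter entry holds the longer palindrome TCACGTGA, in windows of 30 bases with the palindrome in capitals. They are shown because 4 of the 5 genes, all but Atp6v0d1, lay within the middle 50% of all genes in the comparison of levels. Ctsa holds the palindrome at 2 places, at chr2:164833749-164833778 and chr2:164833766-164833795 on the plus strand. The window of Ctsd is chr7:142387908-142387937 on the minus strand and that of Atp6v1a is chr16:44139373-44139402 on the minus strand. The window of Atp6v0d1 is chr8:105566050-105566079 on the minus strand and that of Atp6v0e is chr17:26676387-26676416 on the plus strand. The windows of Ctsa, Atp6v0d1 and Atp6v0e span the start site.
Ctsa, first place: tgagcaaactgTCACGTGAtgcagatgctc
Ctsa, second place: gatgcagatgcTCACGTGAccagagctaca
Ctsd: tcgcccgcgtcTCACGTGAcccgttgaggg
Atp6v1a: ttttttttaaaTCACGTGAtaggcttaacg
Atp6v0d1: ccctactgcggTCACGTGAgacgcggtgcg
Atp6v0e: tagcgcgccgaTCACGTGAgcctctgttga

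TCACGTGA, which contains CACGTG and reads the same on both strands, was found in 5 of the 37 promoter entries of members (13.5%). It was found in 0.974% of all 32851 entries. Among entries of measured genes it was in 5 of the 24 of members (20.8%) and in 1.92% of all 11495. CACGTG alone was found in 8 of the 37 entries (21.6%), against 7.15% of all entries and 10.1% of those of measured genes. A pair of p53 half-sites separated by at most 13 bases was in none of the members' entries and in 0.0731% of all entries. With matches this rare, none was likely among 37 entries, so their absence says little about p53 sites of the members. These matches describe letters in a window of 300 bases and were not tested for binding.

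Levels are TPM, which is scaled by gene length and to the same total in each library. Reads recovered or estimated from these values summed to 100209301 in wild-type and 27720046 in Trp53 KO organoids. The range in brackets after each ratio is its 95% counting interval from these reads (Clopper-Pearson, exact), which leaves out all variation between cultures. A ratio is the Trp53 KO level over the wild-type level, and a gene called N-fold lower has the inverse ratio and interval. Where only 2 levels are given, the first is wild-type and the second Trp53 KO. Differences are log2(TPM + 1) in the knockout minus the control library, and a gene counts as measured if its mean over both libraries reached 1 TPM. On this scale the change of low genes is understated. Trp53 itself stood at 83.2 TPM in wild-type and 2.42 TPM in Trp53 KO organoids.

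Most of the pump was somewhat lower in Trp53 KO organoids, and a few subunits were far lower. Of the 26 pump genes 19 were measured, of which 6 (31.6%) were lower by 2-fold or more and 0 higher by as much. Among all 11228 measured genes 15.3% passed the same line downwards and 8.35% upwards. After quantile normalization of the libraries these shares were 12.08% and 11.15%, and 5 of the 19 pump genes were lower and 0 higher. The median difference of the pump genes was −0.54, and that of all genes was −0.17. Among the cathepsins, 9 of 18 were measured, of which 4 (44.4%) lay past the line downwards and 1 (11.1%) upwards, with a median difference of −0.74. Summed over all members, pump mRNA came to 2185 TPM in wild-type and 1718 TPM in Trp53 KO organoids, and cathepsin mRNA to 2548 and 2148 TPM. The filter uses the mean of both libraries. Of the 10 lower members 3 (Atp6v1b1, Atp6v0e2 and Ctsf) were under 1 TPM in Trp53 KO organoids and passed it through the control library alone.

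In the V1 sector the genes for the catalytic hexamer differed unequally. Atp6v1a, the subunit that splits ATP, was 67.3 TPM in wild-type and 62.3 TPM in Trp53 KO organoids, a ratio of 0.926 (interval 0.897 to 0.957). Its partner Atp6v1b2, the widely expressed form of the B subunit that alternates with A in the ring, was 173.9 TPM and 60.8 TPM, which is 2.86-fold lower (2.76 to 2.97). The tissue-restricted form, Atp6v1b1, was 24.9 TPM in wild-type and 0.115 TPM in Trp53 KO organoids. Both B genes were thus lower in Trp53 KO organoids, while the A gene lay close to its control level. Atp6v1b1 was 216-fold lower (interval 85.8 to 807), with an estimated 2959 and 4 reads, and had rank 63 from the lowest difference among the 11228 measured genes. In whole organoids, fewer cells that express a gene and less of its mRNA per cell cannot be told apart.

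The stalk and shaft genes of V1 stayed within 2-fold with 1 exception. Atp6v1h, the regulatory subunit that couples V1 to V0, was 120.7 and 49.5 TPM, 2.44-fold lower (2.32 to 2.57). Atp6v1c1, which clamps the stalks, was 68.4 and 46.7 TPM, and the shaft subunits Atp6v1d and Atp6v1f were 60.9 and 265.6 TPM in wild-type and 44.2 and 191.2 TPM in Trp53 KO organoids. Atp6v1e1, of the outer stalk, was 193 and 122 TPM. These 4 lay between 0.633 and 0.725 of their control level. The other gene of the outer stalk, Atp6v1g1, lay on the other side, at 204 and 326 TPM, a ratio of 1.59 (1.55 to 1.64), and was the highest difference of any pump gene. Atp6v1g1 lies on chromosome 4, where the median of 672 measured genes was 0.63, and its own difference was 0.67.

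The tissue-restricted V1 forms other than Atp6v1b1 were low in both libraries and did not reach the mean of 1 TPM. Atp6v1g2, known from neurons, was 1.47 TPM in wild-type and 0.211 TPM in Trp53 KO organoids, from an estimated 134 and 6 reads, 6.96-fold lower (2.97 to 18.4). Its exons overlap those of Nfkbil1 on the opposite strand, which was 46.0 and 29.3 TPM. Atp6v1c2 was 0.773 and 0.156 TPM, from 100 and 6 reads, 4.95-fold lower (2.20 to 13.8), and overlaps the highly expressed Pdia6 (510.2 and 389 TPM) on the opposite strand. The libraries kept strand, but whether the counting used strand is not known from the labels, so the small values of these genes are uncertain. Atp6v1e2 and Atp6v1g3 were listed at 0 in both libraries.

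**Figure D1:**
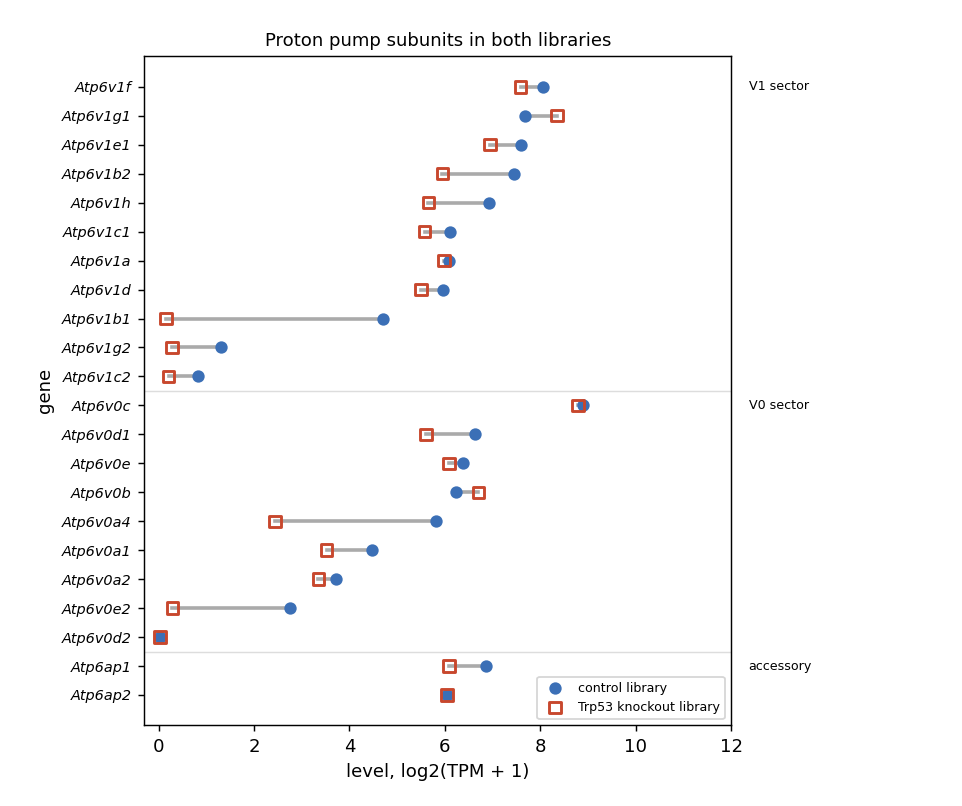
Level of each pump gene above 0 TPM in either library, as log2(TPM + 1) on the horizontal axis, with the control library as filled circles and the knockout library as open squares, 1 library each and no error bars. The long bars belong to Atp6v1b1, Atp6v0a4 and Atp6v0e2, while Atp6v1a, Atp6v0c and Atp6ap2 have nearly coinciding symbols and Atp6v1g1 and Atp6v0b lie to the right of their control.

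In the membrane sector the largest differences were again those of restricted forms. The proton-carrying ring stayed near or above its wild-type level. Atp6v0c, its main subunit, was 475 and 441 TPM (ratio 0.928, 0.907 to 0.950), and Atp6v0b, the larger ring subunit, was 74.2 and 103 TPM (ratio 1.39, 1.31 to 1.47). Atp6v0b also lies on chromosome 4, and its difference of 0.47 was below the median of 0.63 there. Atp6v0c has processed copies in the genome with which reads can be shared, so its value is uncertain. Atp6v0d1, which joins the ring to the shaft, was 98.1 and 47.8 TPM, 2.05-fold lower (1.94 to 2.17), just past the 2-fold line. Its restricted relative Atp6v0d2, known from osteoclasts and macrophages, had 3 reads in wild-type and 1 in Trp53 KO organoids. Atp6v0e, a small membrane subunit, was 82.0 and 66.8 TPM. Its relative Atp6v0e2 was 5.73 TPM in wild-type and 0.221 TPM in Trp53 KO organoids, from 610 and 7 reads, 25.9-fold lower (12.5 to 64.7).

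The a subunit, which forms the fixed part of the proton path and sets which membrane the pump goes to, differed in make-up. Atp6v0a4, the form of acid-secreting epithelia, was the leading a gene in wild-type organoids at 55.1 TPM and was 4.44 TPM in Trp53 KO organoids, a ratio of 0.0805 (0.0710 to 0.0912). Atp6v0a1 was 21.2 and 10.5 TPM, with a ratio of 0.493 whose interval (0.456 to 0.533) spans the 2-fold line, and its difference of −0.95 stayed short of it. Atp6v0a2, found on Golgi and early endosomes, was 12.2 and 9.19 TPM. The fourth form is encoded by Tcirg1, which the naming rule does not take, and it was 13.5 and 9.98 TPM. Atp6v0a4 thus made up 54.0% of the summed TPM of the 4 genes in wild-type and 13.02% in Trp53 KO organoids, where Atp6v0a1, Tcirg1 and Atp6v0a2 stood close together at 30.7%, 29.3% and 27.0%. The exons of Atp6v0a4 overlap those of Tmem213 on the opposite strand, which was 957.8 TPM in wild-type and 323 TPM in Trp53 KO organoids, and the part of this overlap in the value of Atp6v0a4 was not tested.

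Taken by place in the pump, the summed level was lowest relative to wild-type at B and a. The B genes summed to 198.8 TPM in wild-type and 60.9 TPM in Trp53 KO organoids, 3.27-fold lower, and the share of Atp6v1b1 in that sum was 12.5% and 0.189%. The a genes summed to 102 and 34.1 TPM, 2.99-fold lower, with Atp6v0a4 at 54.0% and 13.02%. This sum thus rests largely on Atp6v0a4, for which the part of the overlap with Tmem213 was not tested. The d genes, nearly all Atp6v0d1, summed to 98.1 and 47.8 TPM, 2.05-fold lower. The e genes summed to 87.7 and 67.0 TPM, with Atp6v0e2 at 6.53% and 0.330%. At the C place Atp6v1c1 held 98.9% in wild-type and 99.7% in Trp53 KO organoids, and at the G place Atp6v1g1 held 99.3% and 99.9%. Together the restricted genes Atp6v1b1, Atp6v0a4, Atp6v0e2, Atp6v1g2 and Atp6v1c2 held 4.02% of all pump TPM in wild-type and 0.299% in Trp53 KO organoids.

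**Figure D2:**
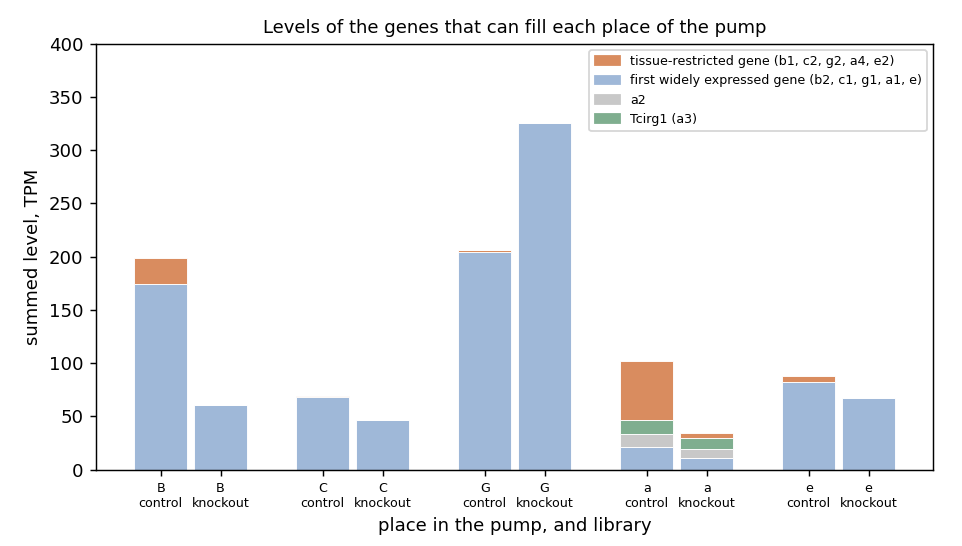
Summed TPM (vertical axis, from 0) of the genes that can fill the B, C, G, a and e places of the pump, with 1 bar per library and the parts of each bar showing single genes. The orange parts, the restricted genes, are visible at B, a and e in wild-type organoids and only at a in Trp53 KO organoids, and G is the 1 place whose bar is taller in Trp53 KO organoids.

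The accessory proteins differed from each other. Atp6ap2, the prorenin receptor, which helps assemble the membrane sector, was 65.2 TPM in wild-type and 65.1 TPM in Trp53 KO organoids, a ratio of 0.999 (0.956 to 1.04). Atp6ap1, which is also bound to the membrane sector and needed for its assembly, was 115.1 and 67.1 TPM, a ratio of 0.584 (0.559 to 0.609). Neither was at least 2-fold apart. Both genes lie on the X chromosome, where the median of 332 measured genes was −0.36, against differences of 0.00 for Atp6ap2 and −0.77 for Atp6ap1. Atp6ap1l was listed at 0 in both libraries, as was Atp6v1fnb, a neighbour of Atp6v1f that shares its name and is not a pump subunit.

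Among the proteases the cysteine cathepsins lay in both directions, and Ctsd and Ctsa stayed near their wild-type level. Ctsd, the main aspartic protease of lysosomes, was the most abundant member in both libraries at 1060.3 TPM in wild-type and 1069.9 TPM in Trp53 KO organoids (interval of the ratio 0.998 to 1.02). Ctsa, a serine carboxypeptidase that also protects the enzymes Neu1 and Glb1, was 67.9 and 61.5 TPM (ratio 0.906, 0.875 to 0.939). Its partners Neu1 and Glb1 were 109.2 and 47.8 TPM in wild-type and 48.5 and 19.4 TPM in Trp53 KO organoids, 2.25- and 2.47-fold lower. The gene for the protective protein thus stayed near its wild-type level, while those of both partner enzymes were past the 2-fold line.

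Ctsb, an abundant cysteine protease that can cut within proteins or trim their C-terminal end, was 559.9 TPM in wild-type and 144.7 TPM in Trp53 KO organoids, 3.87-fold lower (3.80 to 3.94). It was the second cathepsin by level in wild-type organoids, with 22.0% of cathepsin TPM, and the fifth in Trp53 KO organoids, with 6.74%. Ctsc, which removes dipeptides and activates serine proteases of immune granules, was 78.2 and 30.4 TPM, 2.57-fold lower (2.44 to 2.70). Ctsh, an aminopeptidase, was 437 and 262 TPM (ratio 0.598, 0.584 to 0.613) and stayed within 2-fold. These 3 genes were all lower in Trp53 KO organoids, by different amounts.

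Ctsf and Ctso, both cysteine cathepsins, had the lowest ratios of the class. Ctsf was 11.8 TPM in wild-type and 0.227 TPM in Trp53 KO organoids, from an estimated 1392 and 8 reads, 52.0-fold lower (26.2 to 120). Ctso was 20.2 and 1.22 TPM, from 4165 and 75 reads, a ratio of 0.0606 (0.0476 to 0.0761). Against the median of their own chromosomes, 19 and 3, their differences were −3.24 and −3.02. Trp53 KO organoids thus held little mRNA of either gene, though both were minor cathepsins in wild-type organoids at 0.463% and 0.792% of cathepsin TPM.

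Ctsz and Ctsl were higher in Trp53 KO organoids. Ctsz, a carboxypeptidase also named cathepsin X, was 116 TPM in wild-type and 283 TPM in Trp53 KO organoids, 2.44-fold higher (2.36 to 2.51), and was the only member at least 2-fold higher. It lies on chromosome 2, where the median of 895 measured genes was 0.20, and its difference from that median was 1.08. Ctsl, a strong endopeptidase, was 196 and 294.7 TPM, a ratio between 1.48 and 1.52, within 2-fold. Of all cathepsin TPM, Ctsl made up 7.69% and 13.7%, Ctsz 4.55% and 13.2%, Ctsd 41.6% and 49.8%, and Ctsh 17.2% and 12.2%. Ctsd, Ctsb, Ctsh and Ctsl were the leading 4 in wild-type organoids, and Ctsd, Ctsl, Ctsz and Ctsh in Trp53 KO organoids.

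**Figure D3:**
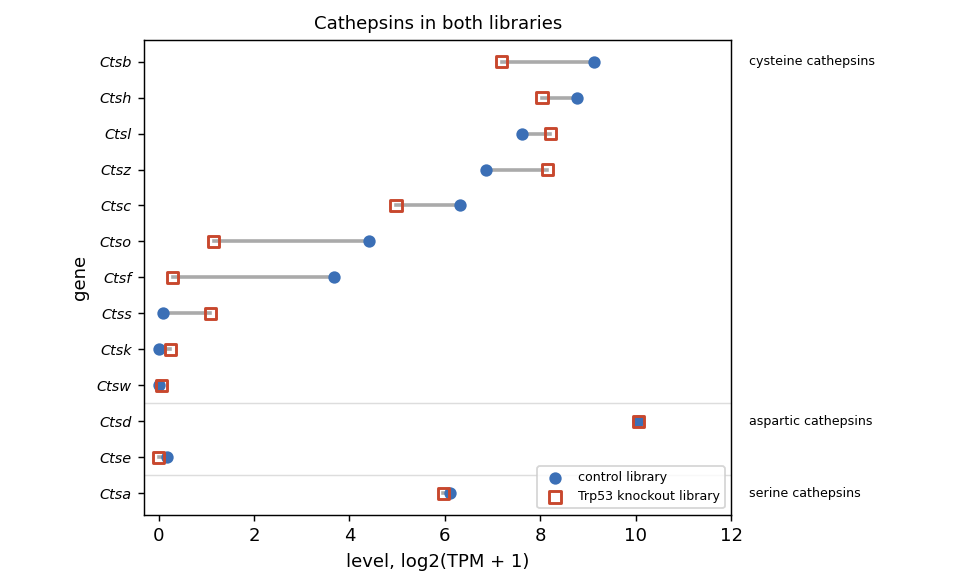
Level of each cathepsin above 0 TPM in either library, as log2(TPM + 1) on the horizontal axis, with the control library as filled circles and the knockout library as open squares, 1 library each and no error bars. Ctsb, Ctso and Ctsf have long bars to the left, Ctsz and Ctsl lie to the right of their control, and the symbols of Ctsd and Ctsa nearly coincide.

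The other 9 cathepsins, among them those known from bone and placenta, did not reach a mean of 1 TPM. Ctss, used in antigen presentation, was 0.0619 TPM in wild-type and 1.12 TPM in Trp53 KO organoids, from 5 and 27 reads, a ratio of 18.2 (6.90 to 60.4). Ctsk, the collagen-cutting protease of osteoclasts, had 1 and 5 reads, a ratio of 16.8 (1.88 to 796). Ctse, an aspartic protease of stomach and immune cells, had 17 reads in wild-type and was listed at 0 in Trp53 KO organoids. Against a floor of 3 reads in the knockout library it was at least 1.68-fold lower, and the interval of its ratio ran from 0 to 0.815. Ctsw, of cytotoxic lymphocytes, had 0 reads and 1 read, and its exons overlap those of Fibp. Ctsg, of neutrophils, and the placental Ctsj, Ctsm, Ctsq and Ctsr were listed at 0 in both libraries. For the 9 members listed at 0 in both libraries, 3 reads would be 0.0265 to 0.0739 TPM in wild-type and 0.0890 to 0.249 TPM in Trp53 KO organoids.

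Genes with the E-box letters shown above lay on both sides of their wild-type level. Of the 5 genes with TCACGTGA in their entry, Ctsd, Atp6v1a, Ctsa and Atp6v0e had differences of 0.01, −0.11, −0.14 and −0.29, and Atp6v0d1 had −1.02. The members with CACGTG but not the longer palindrome were Atp6v0b and Ctsl, with differences of 0.47 and 0.59, and Ctsf, with −3.38. RefSeq entries were at hand for 21 of the 28 measured members. Tfeb and Tfe3, which encode factors that bind this element, were 5.84 and 17.0 TPM in wild-type and 4.37 and 16.3 TPM in Trp53 KO organoids. Mitf had 21 reads in wild-type and Tfec 0, and both were listed at 0 in Trp53 KO organoids.

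Many other lysosomal enzymes were lower too. A list of 32 measured genes held hydrolases that are not cathepsins, and also the genes Gm2a and Psap, which encode cofactors of such enzymes. Of the 32 genes 15 (46.9%), Gm2a among them, were past 2-fold downwards and 0 upwards, against 15.3% and 8.35% of all measured genes. Their median difference was −0.94. Aga, which frees sugars from asparagine, was 29.1 and 2.07 TPM, and Galns, a sulfatase of keratan sulfate, was 55.8 and 11.8 TPM. Gla, alpha-galactosidase, was above its wild-type level at 9.28 and 13.3 TPM. Of 21 lysosomal membrane protein genes 6 (28.6%) were past 2-fold downwards, against the same 15.3%, and 0 upwards, and the median was −0.57. Slc17a5, the sialic acid exporter, was 15.8 and 2.90 TPM, and Lamp2, a main membrane glycoprotein, was 113 and 114 TPM.

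For genes that assemble or use the pump, or sort enzymes, the shares past 2-fold downwards were near the 15.3% of all measured genes. Of 11 measured assembly and regulation genes 1 (9.09%) was past it downwards and 0 upwards, and the median was −0.50. That gene, Tmem9, which is found with the pump in lysosomes, was 63.5 and 21.1 TPM. Of 12 genes for sorting enzymes to lysosomes 2 (16.7%) were past it downwards and 0 upwards, and the median was −0.28. Sort1, the sorting receptor sortilin, was 22.5 and 4.62 TPM, and M6pr, a mannose 6-phosphate receptor chosen after its values were seen, was 288.9 and 221.7 TPM. Of 10 measured genes of Ragulator and the Rag GTPases, the complex that senses amino acids beside the pump on the lysosome surface, 1 (10%) was past it downwards and 0 upwards, and the median was −0.14. That gene, Rragb, passed the filter on low values through the control library alone.

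**Figure D4:**
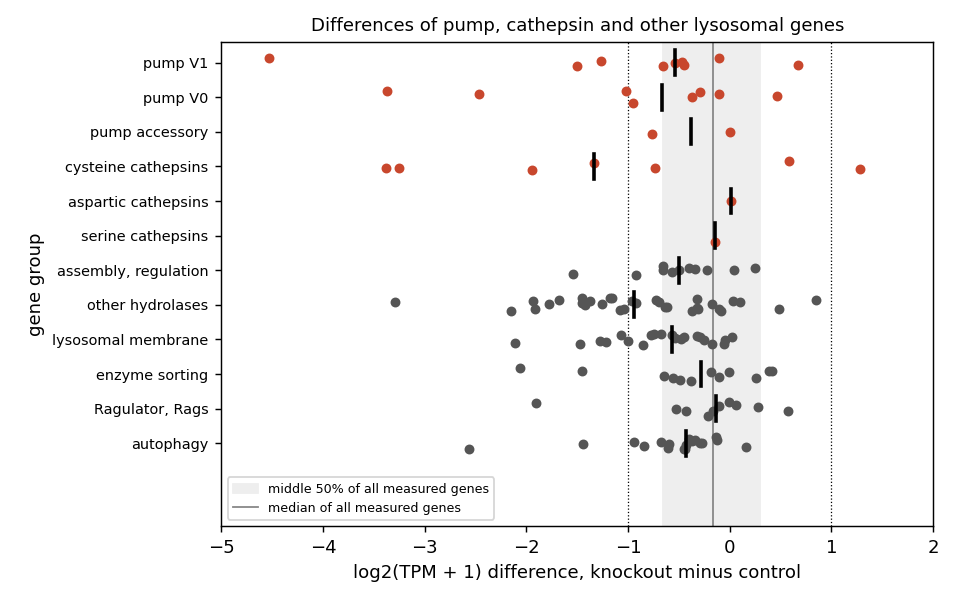
Difference in log2(TPM + 1), knockout minus control, for each measured gene (points) of the pump and cathepsin classes (red) and of other lysosomal gene lists (grey), with the median of each group as a short black bar. Dotted lines mark 2-fold, and the grey band holds the middle 50% of all measured genes, from −0.65 to 0.30. Medians of all groups shown except the aspartic and serine cathepsins and Ragulator lie to the left of the median of all genes.

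Markers of cell types differed as well, and their part in these results was not tested. The 5 epithelial markers were all within 2-fold and summed to 6961 TPM in wild-type and 5948 TPM in Trp53 KO organoids. All 4 measured multiciliated markers and 3 of 4 secretory markers were past 2-fold downwards, against 15.3% of all measured genes, with sums of 180 and 174 TPM in wild-type and 60.2 and 76.6 TPM in Trp53 KO organoids. Among them Ccdc153 and Tppp3, listed at 0 in Trp53 KO organoids, and Ovgp1, at 0.192 TPM there, passed the filter on low values through the control library alone. Of the other markers listed for proton-secreting cells, Foxi1 and Slc4a1 were listed at 0 in both libraries, and Slc26a4 was 26.4 and 30.1 TPM. Of 12 immune markers 4 were measured and 3 of these were past 2-fold downwards, against the same 15.3% of all measured genes. The 12 summed to 296 and 17.2 TPM, mostly from Lyz2 at 257 TPM and 0. Csf1r was 8.78 and 0.420 TPM, Aif1 was 4.02 and 0.642 TPM, and Cd68 was 25.5 and 15.97 TPM, so that Lyz2, Csf1r and Aif1 passed the filter through the control library alone. Of the 8 immune markers not measured, Tyrobp, C1qa and C1qb were listed at 0 in both libraries, and Ptprc was 0.0886 and 0.0110 TPM. Fibroblast and mesothelial markers summed to 244.5 and 233 TPM, nearly all from Msln, and the 4 endothelial markers to 0.0903 and 0.0517 TPM.

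Chromosomes differed in their median, and this bears on a few members. The 2 measured members on chromosome 4, Atp6v1g1 and Atp6v0b, were the only pump genes above their control level, and with the median of that chromosome subtracted their differences were 0.04 and −0.16. The 2 members on chromosome 2, Ctsz and Ctsa, had differences of 1.08 and −0.34 after the same step. Chromosome 6, where the median of 518 genes was −0.27, held 5 measured pump genes, of which Atp6v1b1, Atp6v0a4 and Atp6v0e2 were lower and Atp6v1e1 and Atp6v1f were within 2-fold. With every gene set against the median of its chromosome, Atp6v1h and Atp6v0d1 stayed short of 2-fold at −0.98 and −0.77. The other 8 lower members and Ctsz remained past it. Of all 11019 genes treated in this way 12.4% were past it downwards and 8.84% upwards.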

How the data were processed

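Total RNA of 2 organoid libraries was sequenced with a strand-preserving kit, per the labels' protocols, and GRCm39 is the build that the submitters' processing notes name. Nothing used here names the aligner, counter or annotation. Deposited values are TPM, computed by the authors, for 25668 gene symbols in each library, and 16094 and 14066 genes were above 0.

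Low TPM values were whole multiples of the value of 1 read, 0.0168 TPM (control) and 0.0565 TPM (knockout) at 1000 bases. With transcript lengths from GENCODE M21 (an earlier build, used for lengths, names, chromosomes and exon overlaps only), 31.1% of 10243 genes with over 50 reads came out whole in both libraries within 0.03 reads, against 0.36% for arbitrary values. For 13 of the 28 measured members an annotated length gave whole reads, and the others are estimates from the longest protein-coding transcript.

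Differences and intervals were computed with Python 3.11.15, pandas 2.3.3 and scipy 1.17.1 with a pseudocount of 1 TPM, a mean TPM of at least 1 and a 2-fold threshold. With 1 library per group no test between genotypes was made. The count of genes past the threshold was tested on simulated data. Every member above the filter is named, with at most 2 genes at each end of the other lists plus a few marked as chosen later, with values in view. Neu1, Glb1 and the marker genes are named outside that rule, as partners of Ctsa and as checks of cell type. A gene that the rule takes is not reported here. The members and lists were chosen with earlier results of these data known. Alternatives were other pseudocounts, filters, scalings and thresholds. Setting each gene against the median of its chromosome and thinning the control reads were added after the data were seen.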

Additional observations from a re-analysis of the deposited data

How the results depend on the processing

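With 1 library per genotype nothing could be left out, and no paired analysis was possible because each group had a single library. All 11 members called at least 2-fold apart kept their direction with other pseudocounts and scalings. Quantile normalization moved the median of all genes from −0.17 to 0.02 and moved the share of higher genes among those past 2-fold from 35.3% to 48.0%. Relative to the median of all genes, the pump median was −0.37 as reported and −0.51 after that step, and the cathepsin median −0.57 and −0.80. Atp6v0d1, near the threshold, was no longer past 2-fold with a pseudocount of 5, after rescaling by the median ratio, after quantile normalization and against its chromosome.

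A pseudocount of 5 gave 563 higher and 930 lower among all genes, and a mean TPM of at least 5 left 1091 lower. With no filter, 2 cathepsins were higher, the second being Ctss, and the cathepsin median was 0, since the 9 unmeasured cathepsins, most at or near 0, enter it. Rescaling by the median ratio gave medians of −0.40 for the pump and −0.60 for the cathepsins, and subtracting the chromosome medians gave −0.36 and −0.43. At a 4-fold threshold 3 pump genes (Atp6v1b1, Atp6v0a4 and Atp6v0e2) and 2 cathepsins (Ctsf and Ctso) were lower, and 0 cathepsins higher. Among all measured genes 267 (2.38%) were higher and 661 (5.89%) lower at that threshold. Atp6v1b1, Atp6v0e2 and Ctsf passed the filter on low values through the control library alone. Thinning the control reads to the knockout depth kept all 10 lower members and Ctsz past 2-fold, with 15.4% of all genes lower and 8.23% higher. A mean TPM of at least 5 leaves out Atp6v0e2, a pseudocount of 0.1 adds Atp6v0a1, and thinning or no filter adds Atp6v1g2 to the lower genes. Depth limits the members under 1 TPM, where a few reads set the ratio.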

Other observations

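Genes for cystatins, their relatives and other cathepsin inhibitors lay on both sides of their wild-type level. Of 15 such genes listed in the files 6 were measured, 2 of them (33.3%) past 2-fold upwards and 1 (16.7%) downwards. Of all measured genes these shares were 8.35% and 15.3%. The median difference of the 6 genes was 0.30 in log2(TPM + 1). The broad inhibitors Cstb and Cst3 were 765.2 and 608 TPM in wild-type and 1057 and 421 TPM in Trp53 KO organoids. Stfa3, a stefin of the mouse-specific cluster, was 0.326 and 87.0 TPM, from 8 and 634 reads, a ratio of 267 (135 to 620). Csta1, of the same family, was 0.223 and 4.04 TPM. Stfa1, not measured and chosen after its values were seen, lay the other way at 1.75 and 0.0796 TPM, from 74 reads and 1 read. Members of this cluster are similar enough to share reads, so their single values are uncertain. Stfa3 and Csta1 were under 1 TPM in wild-type organoids and passed the filter on low values through the knockout library alone. The 1 gene past 2-fold downwards was Fetub, a secreted relative of the cystatins, at 44.6 and 3.92 TPM.

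Of 18 autophagy genes, whose products bring cargo to the lysosome, 2 (11.1%) were past 2-fold downwards, near the 15.3% of all measured genes, and 0 upwards, and the median was −0.43. Gabarapl1, which coats autophagosomes, was 76.3 and 12.1 TPM, and Ulk1, the kinase that starts their formation, was 13.9 and 4.46 TPM. Map1lc3a and Atg5 had the highest differences, with Map1lc3a at 76.7 and 85.7 TPM and Atg5 at 34.7 and 31.6 TPM. In the Rag GTPases, Rragb was 2.83 and 0.0250 TPM, from 381 reads and 1 read. Rragb passed the filter on low values through the control library alone. Rraga was 44.5 and 66.5 TPM. It lies on chromosome 4, where the median difference was 0.63, and its own difference was 0.57.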
